A study of Rattus norvegicus with 24 samples.

Results

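The comparison described here set the central nucleus of the amygdala (CEA) against the paraventricular nucleus of the hypothalamus (PVN) in rats that had no operation. It rested on 6 of the 24 mRNA libraries of the series, namely the 3 CEA and the 3 PVN libraries titled as normal controls (NC). All 6 came from male Sprague-Dawley rats with neither hepatectomy nor acupuncture needles. These rats were accustomed to a restraint device and were held in it for as long as the stimulated rats were. The other 18 libraries came from rats that lost part of the liver, alone or with electroacupuncture or sham needling, and they are used only where they are named as operated. By the study's methods the regions were cut out by an atlas a day after the last stimulation, and the brains, which were collected together, came from more than 1 animal. The labels tie no library to a rat, so p-values measure the spread between these libraries.

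The PVN is the neuroendocrine hub of the hypothalamus. Its large neurons make oxytocin and vasopressin for release from the posterior pituitary, and its small neurons make the releasing hormones CRH and TRH, which drive the adrenal and thyroid axes. The CEA is the output nucleus of the amygdala, built mostly of GABA neurons of the same embryonic family as those of the striatum, several classes of which carry peptides such as enkephalin, tachykinin, somatostatin and CRH. In dissected tissue, fewer cells of a type and less RNA per cell cannot be told apart.

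The 2 hormone genes that define the large neurons of the PVN lie next to each other on rat chromosome 3 and are read towards each other. Their 250 bases before the start site are shown because both genes were among those that set the regions apart most at high level. The letters are those of RefSeq on GRCr8, 5′ to 3′ on the strand of the gene, at chr3:138235504-138235753 on the plus strand for Oxt and chr3:138248523-138248772 on the minus strand for Avp. Capitals mark AGGTCA, the hexamer that many nuclear receptors bind, read on either strand.
Oxt: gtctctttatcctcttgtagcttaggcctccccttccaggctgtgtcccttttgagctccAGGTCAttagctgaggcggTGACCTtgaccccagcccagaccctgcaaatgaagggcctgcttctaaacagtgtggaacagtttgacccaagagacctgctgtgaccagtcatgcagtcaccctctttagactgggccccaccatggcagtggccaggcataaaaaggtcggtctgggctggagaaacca
Avp: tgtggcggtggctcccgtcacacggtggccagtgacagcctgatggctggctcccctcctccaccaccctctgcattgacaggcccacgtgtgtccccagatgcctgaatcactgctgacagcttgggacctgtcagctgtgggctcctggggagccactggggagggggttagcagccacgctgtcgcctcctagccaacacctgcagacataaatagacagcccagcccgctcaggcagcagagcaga
The Oxt window held 2 matches, which begin 190 and 171 bases before the start, and the Avp window held 0. AGGTCA was present in 13.5% of 24206 rat promoters of this length and in 10.4% of the 10127 of genes tested, against 9.62% of those of genes higher in CEA and 10.4% of those of genes higher in PVN. The other motifs searched on both strands were TGACGTCA, TAATTA and TATAAA, and neither window held any of them.

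Of 16748 genes tested, 4414 (26.4%) differed between the regions at an edgeR adjusted p under 0.05, with 2120 (12.7%) higher in CEA and 2294 (13.7%) higher in PVN. The fold changes below are log2 values of CEA over PVN, so that positive values are higher in CEA, and levels are CPM, counts scaled to the size of the library, given for replicates 1, 2 and 3 in that order. At a log2 fold change of at least 2, 298 genes (1.78%) were higher in CEA and 444 (2.65%) were higher in PVN. At 4 or more, the counts were 56 (0.334%) and 55 (0.328%). Every CEA library was above every PVN library for 21.3% of genes tested, and the reverse held for 24%. The median over all genes tested was -0.01, which is the background against which the medians of gene lists are set. Total counts were 14932702 to 18145421 per library, so that a gene without counts may still hold 3 counts, the floor used here, or 0.163 to 0.197 CPM, for counting error only. PVN NC replicate 2 stood nearer to CEA than the other PVN libraries, with correlations across genes of 0.932 to 0.938 against 0.893 to 0.928, and without it 6152 genes were called. The count was 2792 or 2450 when CEA NC replicate 2 or 3 was removed, and 2505 or 2551 when PVN NC replicate 1 or 3 was.

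**Figure D1:**
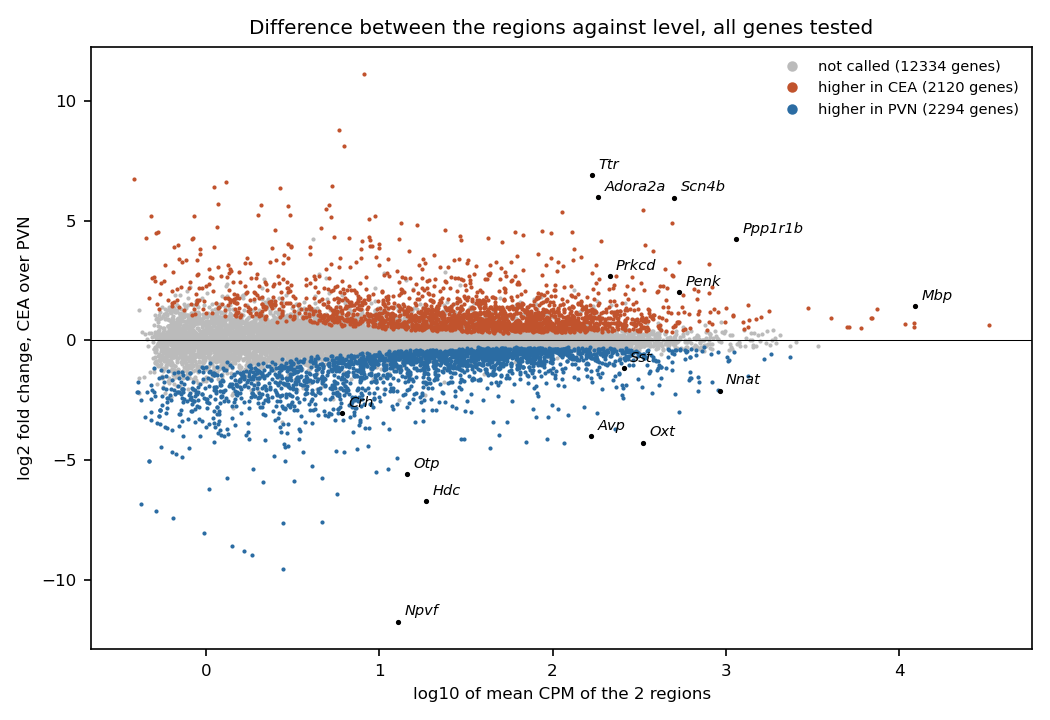
Each point is a gene tested, with the log10 of its mean CPM over both regions on the horizontal axis and its log2 fold change of CEA over PVN on the vertical axis. The 2120 genes higher in CEA and the 2294 higher in PVN spread over the whole range of levels, with Npvf at the lower edge and the highly expressed Mbp and Ppp1r1b on the CEA side; the fitted value of a gene with 0 counts in a region, such as Npvf, depends on the prior count and is no measure of size.

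The labelled regions were checked first against the genes that define them. PVN libraries carried the factors that specify its neuroendocrine neurons. Otp, a homeobox factor that these neurons need, was at 27.9, 30.1 and 27.5 CPM in PVN and 1.13, 0.352 and 0.263 CPM in CEA (log2 fold change -5.58, SE 0.41, edgeR adjusted p = 0.000427). Sim1, its partner in their formation, was at 13.6, 13.1 and 9.64 CPM in PVN and 0.949, 0.117 and 0.328 CPM in CEA (log2 fold change -4.67, adjusted p = 0.00165). Crh itself was low in all 6 libraries, at 12.2, 8.0 and 12.3 CPM in PVN and 2.08, 0.703 and 1.12 CPM in CEA (log2 fold change -3.05, SE 0.40, edgeR adjusted p = 0.00241). All 3 genes were higher in every PVN library than in any CEA library. With CEA NC replicate 1 left out, the values were -6.49 for Otp and -5.74 for Sim1.

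The PVN libraries also held genes known from neighbouring hypothalamic nuclei. Nr5a1, which marks the ventromedial nucleus, was at 9.10, 7.19 and 7.56 CPM in PVN and 0.356, 0.234 and 0 CPM in CEA (log2 fold change -5.25, adjusted p = 0.00142), or -5.93 when CEA NC replicate 1 was left out. Ghrh and Agrp, peptides of the arcuate nucleus, were at 6.46, 4.57 and 5.59 CPM and at 11.6, 9.26 and 11.8 CPM in PVN, and did not exceed 0.657 CPM in any CEA library. Hdc, the enzyme that makes histamine in the tuberomammillary nucleus, was at 60.2, 21.7 and 29.3 CPM in PVN and 0.297, 0.527 and 0.197 CPM in CEA (log2 fold change -6.72, adjusted p = 0.000570).

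The CEA libraries were mixed when set against the genes that mark the central nucleus itself. Of 16 central amygdala genes tested, 4 were higher in CEA and 6 were higher in PVN, with a median of -0.48. Those higher in PVN included Cartpt (log2 fold change -4.13) and Dlk1 (-3.40), and also Crh, Sst and Nts, whose values are given in other paragraphs. Wfs1, a membrane protein of the endoplasmic reticulum, was at 144, 83.4 and 141 CPM in CEA and 40.1, 35.2 and 34.9 CPM in PVN (log2 fold change 1.74, SE 0.21, edgeR adjusted p = 0.00206). Cyp26b1, which breaks down retinoic acid, was at 11.2, 4.92 and 11.3 CPM in CEA and 1.88, 2.67 and 1.26 CPM in PVN (log2 fold change 2.23, adjusted p = 0.00833). Tac1, the precursor of substance P, was at 294, 153 and 173 CPM in CEA and 90.5, 58.8 and 67.2 CPM in PVN (log2 fold change 1.52, adjusted p = 0.00789). The 4 genes included Calcrl, a receptor subunit for CGRP, at only 0.48, and its call was lost when the test left out CEA NC replicate 2 or 3 or PVN NC replicate 1 or 3 (adjusted p 0.101 to 0.117). Without CEA NC replicate 2 the number higher in PVN was 3.

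Prkcd, the kinase that marks a large class of lateral CEA neurons, showed that the CEA libraries were not alike. It was at 53.5, 510.2 and 547 CPM in CEA and 14.4, 96.8 and 61.6 CPM in PVN. CEA NC replicate 1 lay below the highest PVN library, so the regions overlapped, and the gene was not called (log2 fold change 2.68, SE 0.92, edgeR adjusted p = 0.0695). Without PVN NC replicate 2 its log2 fold change was 3.29 (adjusted p 0.0665). In the fit blocked by replicate number the adjusted p was 0.00416. It was also called with no filter (adjusted p 0.0435), by DESeq2 (0.0492), with all 24 libraries fitted together (0.0428), with all of them but CEA HT+EA replicate 2, an operated library low in mitochondrial transcripts (0.0391), and with CEA NC replicate 1 left out (0.0157), and not under the other alternatives on these libraries. Thalamic neurons are also known to express Prkcd. Summed over the 15 members of a list of thalamic genes, CEA held 359.8, 1170.0 and 1342 CPM and PVN held 721, 1051 and 1022 CPM, and replicate 1 was the lowest library in both regions. The list includes Slc17a6, which hypothalamic neurons also use, so its PVN sums are not a measure of thalamic tissue alone. Of 15 thalamic genes tested, 1 was higher in CEA and 1 was higher in PVN (median 0.65), against 6 and 1 with the block and 8 and 2 without CEA NC replicate 1. With CEA NC replicate 2 or 3 or PVN NC replicate 3 removed, 0 were higher in CEA. The part of thalamic tissue in the Prkcd values was not tested.

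**Figure D2:**
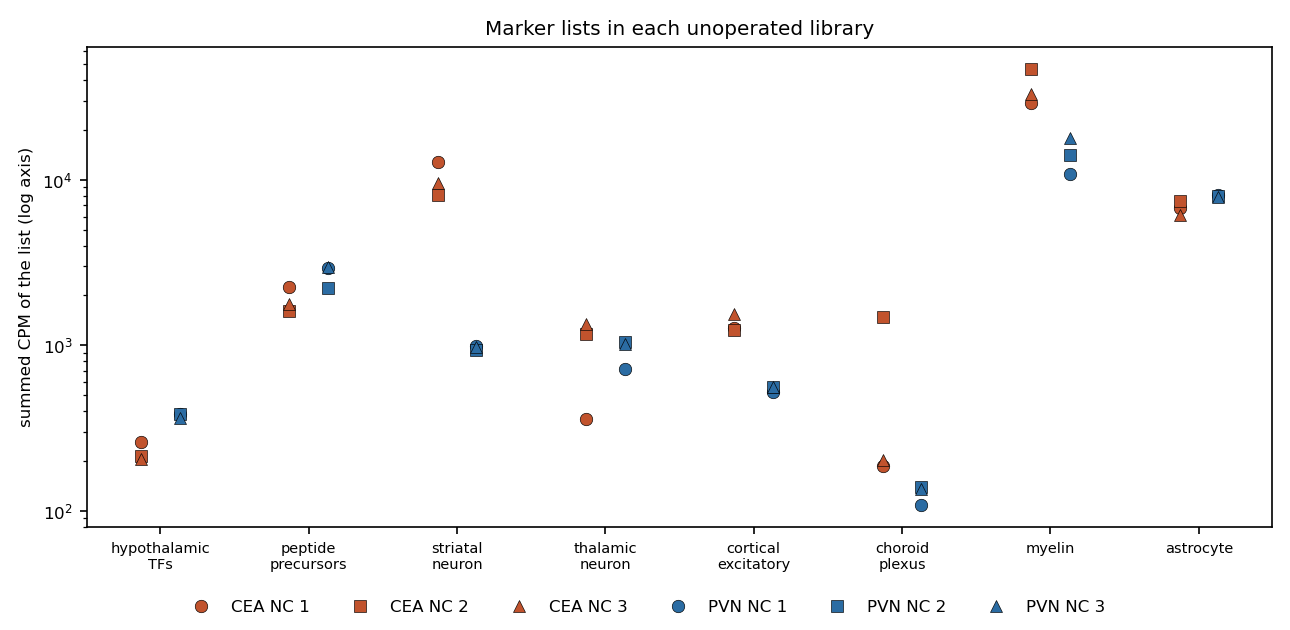
Summed CPM of 8 marker lists in each unoperated library on a log axis, with CEA in orange and PVN in blue and a symbol for each replicate. The striatal and myelin lists lie higher in all 3 CEA libraries than in any PVN library and the hypothalamic transcription factors lie higher in all 3 PVN libraries, while CEA NC 1 stands low for thalamic genes and CEA NC 2 stands high for choroid plexus genes.

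Of 35 neuropeptide and hormone precursors tested, 23 were higher in PVN and 4 were higher in CEA, with a median log2 fold change of -1.94. Oxt, the oxytocin precursor, was at 573, 550.4 and 771 CPM in PVN and 66.0, 24 and 7.49 CPM in CEA. Every PVN library was above every CEA library, and CEA NC replicate 1 was the highest of the CEA libraries (log2 fold change -4.28, SE 0.71, edgeR adjusted p = 0.00573). Avp, the vasopressin precursor, was at 277, 294 and 372 CPM in PVN and 39.5, 10.7 and 8.6 CPM in CEA, with the same order of CEA libraries (log2 fold change -4.0, SE 0.58, edgeR adjusted p = 0.00358). Per length, Oxt stood at 2301 ± 368 TPM, a level scaled for gene length, in PVN and Avp at 1066 ± 152 TPM (SD, n = 3). With CEA NC replicate 1 left out, the log2 fold changes were -5.32 for Oxt and -5.02 for Avp.

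Adcyap1, the precursor of the stress peptide PACAP, was at 92.7, 75.9 and 81.4 CPM in PVN and 3.98, 3.57 and 3.35 CPM in CEA (log2 fold change -4.52, SE 0.14, edgeR adjusted p = 4.0e-05). Cartpt, an anorexigenic peptide, was at 242, 143 and 146 CPM in PVN and 21.5, 4.63 and 4.07 CPM in CEA (log2 fold change -4.13, adjusted p = 0.00495). Hcrt and Pomc, the precursors of orexin and of the melanocortins, were chosen after their values were seen. The PVN libraries also held genes of neighbouring nuclei, as given above, so their levels do not place Hcrt or Pomc in PVN neurons. Hcrt was at 296, 139 and 233 CPM in PVN and 28.2, 3.69 and 2.36 CPM in CEA (log2 fold change -4.28, adjusted p = 0.0136). Pomc was at 44.4, 64.4 and 58.9 CPM in PVN and 2.55, 4.63 and 2.30 CPM in CEA (log2 fold change -4.14, adjusted p = 0.000389). For each of these genes the regions did not overlap. With CEA NC replicate 1 left out, the log2 fold change was -6.18 for Hcrt and -5.34 for Cartpt.

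Npvf, the precursor of RFamide peptides that restrain gonadotropins, was not detected in CEA. Its level in the PVN libraries likewise does not place it in neurons of the PVN itself. It had a count of 0 in every CEA library and 40.8, 17.7 and 18.5 CPM in PVN, which makes it at least 139.8-fold higher in PVN against a floor of 3 counts per library. Ghrh, the releasing hormone for growth hormone, was at 0.237, 0.176 and 0.0657 CPM in CEA, where replicate 1 alone exceeded the floor, against the PVN values above (log2 fold change -5.03, adjusted p = 0.000533). Medians of lists with members at 0 were the same when such members were set to their lower bound.

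Sst, the somatostatin precursor, was high in both regions and only modestly higher in PVN, at 459, 215 and 397 CPM in PVN and 206, 111 and 159 CPM in CEA (log2 fold change -1.17, SE 0.32, edgeR adjusted p = 0.0330). Its lowest PVN library was just above its highest CEA library. Its call was lost when the test left out CEA NC replicate 2 or 3 or PVN NC replicate 1 or 3 (adjusted p 0.0962 to 0.0993). Nts, the neurotensin precursor, was at 28.0, 27.4 and 35.0 CPM in PVN and 22.6, 11.1 and 10.6 CPM in CEA (log2 fold change -1.03, adjusted p = 0.0405), and its call was lost when the test left out CEA NC replicate 2 or 3 or PVN NC replicate 1 or 3 (adjusted p 0.0806 to 0.124).

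Of the 35 precursors tested, 4 were higher in CEA, against 12.7% of all genes tested. Penk and Tac1 were called with any 1 library left out. Penk, the precursor of enkephalin, was at 1149, 676 and 761 CPM in CEA and 258, 158 and 233 CPM in PVN (log2 fold change 2.0, SE 0.26, edgeR adjusted p = 0.00236), and Tac1 is given above. Vip, the vasoactive intestinal peptide, was at 10.0, 43.1 and 43.9 CPM in CEA and 7.72, 9.69 and 8.43 CPM in PVN, and its CEA NC replicate 1 stood far below the others (log2 fold change 1.91, adjusted p = 0.0297). The Vip call was lost when the test left out CEA NC replicate 2 or 3 or PVN NC replicate 1, 2 or 3 (adjusted p 0.0539 to 0.0944), and when all 24 libraries were fitted together (0.0719). Adm, the vasodilator adrenomedullin, was at 2.37, 1.58 and 2.36 CPM in CEA and 0.878, 1.14 and 1.15 CPM in PVN (log2 fold change 0.98, adjusted p = 0.0483), and its call was lost with each library left out in turn (adjusted p 0.0536 to 0.151), with the block (0.0719), with no filter (0.0749) and by DESeq2 (0.0890). The number higher in CEA was 2 without CEA NC replicate 2 or 3 or PVN NC replicate 1 or 3.

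The machinery that packs and processes peptides was also higher in PVN. Of 19 such genes tested, 12 were higher in PVN and 0 in CEA at the adjusted threshold (median -0.79). Scg2, a granin that helps to form dense core vesicles, was at 1250.1, 950.4 and 1179 CPM in PVN and 309, 223 and 242 CPM in CEA (log2 fold change -2.13, SE 0.17, edgeR adjusted p = 0.000533). Baiap3, which acts in dense core vesicle traffic, was at 468, 388 and 425 CPM in PVN and 69.1, 14.9 and 14.6 CPM in CEA (log2 fold change -3.70, adjusted p = 0.00617), and CEA NC replicate 1 was again the highest CEA library, without which the value was -4.85. Resp18, an endocrine secretory protein, was at 475, 331 and 447 CPM in PVN and 123, 66.6 and 67.5 CPM in CEA (log2 fold change -2.28, adjusted p = 0.00194). Pcsk1, a convertase that cleaves peptide precursors, was at 4.14, 7.68 and 5.26 CPM in PVN and 2.31, 1.17 and 2.30 CPM in CEA (log2 fold change -1.56, adjusted p = 0.0183). Its fellow convertase Pcsk2 (log2 fold change 0.50, adjusted p = 0.100) and the carboxypeptidase Cpe (log2 fold change 0.21, adjusted p = 0.132) were not called. Without CEA NC replicate 1, 1 gene of the list, Pcsk2, was higher in CEA (log2 fold change 0.66, adjusted p 0.0357), and Cpe was called in the operated libraries (0.29, adjusted p 0.00156).

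Of 45 peptide receptors tested, 20 were higher in PVN and 5 were higher in CEA (median -1.03), and the latter fell to 1 without CEA NC replicate 2 or 3 or PVN NC replicate 1 or 3. Ghsr, the ghrelin receptor, was at 6.40, 4.74 and 5.31 CPM in PVN and 0.475, 0.117 and 0.131 CPM in CEA (log2 fold change -4.45, SE 0.47, edgeR adjusted p = 0.00132). Mc3r, a melanocortin receptor, was at 6.65, 5.17 and 5.31 CPM in PVN and 0.653, 0.0586 and 0.0657 CPM in CEA (log2 fold change -4.40, adjusted p = 0.00416). Crhr2 was at 12.5, 6.59 and 8.49 CPM in PVN and 1.42, 1.05 and 0.525 CPM in CEA (log2 fold change -3.18, adjusted p = 0.00225). Avpr1a, a vasopressin receptor, was at 5.96, 4.90 and 5.48 CPM in PVN and 2.02, 1.58 and 0.919 CPM in CEA (log2 fold change -1.84, adjusted p = 0.00613). The regions did not overlap for any of the 4, and with CEA NC replicate 1 left out the log2 fold change was -5.38 for Ghsr and -6.36 for Mc3r. Crhr1, the main receptor for CRH, was at 4.63, 4.75 and 6.50 CPM in CEA and 4.39, 6.04 and 7.34 CPM in PVN and was not called (log2 fold change -0.17, SE 0.26, edgeR adjusted p = 0.667).

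Calcr, the calcitonin receptor, was at 162, 122 and 118 CPM in PVN and 18.5, 1.17 and 1.31 CPM in CEA, and the CEA value came mostly from replicate 1 (log2 fold change -4.25, SE 0.95, edgeR adjusted p = 0.0167). Leaving out that library gave a log2 fold change of -6.74. Agtr1a, the angiotensin II receptor, was at 4.52, 2.78 and 2.74 CPM in PVN and 0.119, 0.176 and 0.263 CPM in CEA (log2 fold change -4.13, adjusted p = 0.00118). Agt, the angiotensinogen that astrocytes release, was at 940.2, 778 and 1127 CPM in PVN and 359.8, 338 and 255 CPM in CEA (log2 fold change -1.58, adjusted p = 0.00171), so that ligand precursor and receptor were both higher in PVN.

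**Figure D3:**
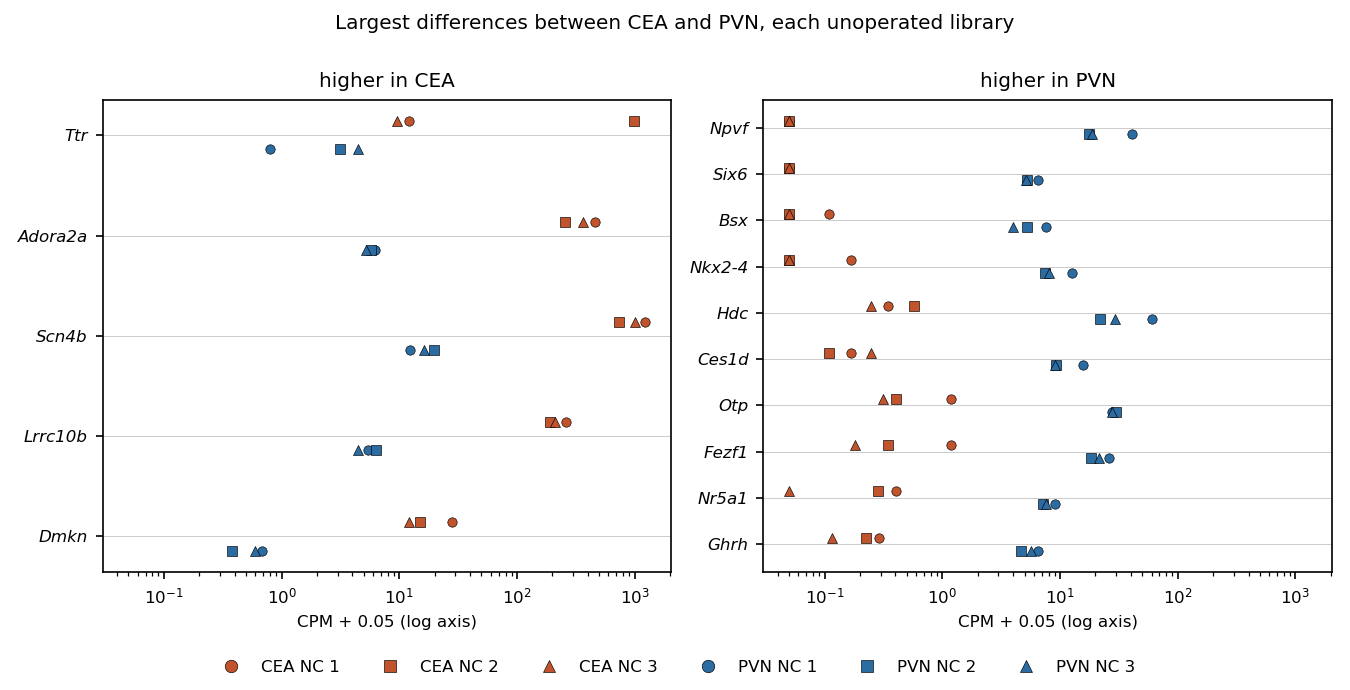
CPM plus 0.05 on a log axis for the genes described in the text out of the 12 with the largest log2 fold change in each direction among called genes with a symbol, a mean of at least 5 CPM and no overlap between the regions, with CEA in orange, PVN in blue and a symbol for each replicate. Within a gene the CEA and PVN libraries form separate groups, which the choice of genes fixes; Ttr rests on CEA NC 2, and Npvf and Six6 have 0 counts in the 3 CEA libraries.

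Of 20 hypothalamic factors tested, 14 were higher in PVN and 1 in CEA (median -2.78). Six6, a homeobox factor of the ventral hypothalamus, had a count of 0 in every CEA library and 6.40, 5.23 and 5.09 CPM in PVN, at least 30.4-fold higher. Hmx2 and Rax were also at 0 in CEA, and were at least 18.1-fold and 10.6-fold higher in PVN. Nkx2-4 had 2 counts over the CEA libraries and 12.5, 7.40 and 8.0 CPM in PVN, a ratio of 225 (95% counting interval 62.0 to 1866). Both of those counts were in CEA NC replicate 1, and the other CEA libraries were at 0, so the fitted log2 fold change, which at such counts depends on the prior count, was -7.60 with that library and -10.30 without it. Fezf1, which acts in the ventromedial hypothalamus, was at 26.3, 18.2 and 21.6 CPM in PVN and 1.13, 0.293 and 0.131 CPM in CEA (log2 fold change -5.37, adjusted p = 0.00110), or -6.62 when CEA NC replicate 1 was left out. Pou3f2, needed by neurons of the PVN, was at 20.7, 23.4 and 20.4 CPM in PVN and 18.2, 14.5 and 10.8 CPM in CEA and was not called (log2 fold change -0.57, adjusted p = 0.0735), but was without CEA NC replicate 1 (adjusted p 0.0301) and in the operated libraries (0.000665). The gene higher in CEA was Six3 (log2 fold change 0.60, adjusted p = 0.0272), whose call was lost when the test left out CEA NC replicate 1, 2 or 3 or PVN NC replicate 1 (adjusted p 0.0664 to 0.0868). Without PVN NC replicate 2 the number higher in CEA was 2.

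Of 28 telencephalic factors tested, 16 were higher in CEA and 2 were higher in PVN (median 1.10). Bcl11b, which acts in the maturation of striatal projection neurons, was at 246, 139 and 179.8 CPM in CEA and 9.29, 8.33 and 7.67 CPM in PVN (log2 fold change 4.48, SE 0.24, edgeR adjusted p = 0.000164). Meis2, a homeobox factor of the lateral ganglionic eminence and amygdala, was at 258, 113 and 165 CPM in CEA and 14.6, 15.6 and 19.9 CPM in PVN (log2 fold change 3.42, adjusted p = 0.000848). Foxp1 was at 69.4, 47.4 and 54.8 CPM in CEA and 6.09, 12.1 and 8.71 CPM in PVN (log2 fold change 2.67, adjusted p = 0.00106). In each case the regions did not overlap.

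The 2 factors higher in PVN were Dlx1 and Dlx2, which drive the formation of GABA neurons in telencephalon and hypothalamus. Dlx1 was at 64.4, 43.3 and 62.3 CPM in PVN and 22.6, 19.9 and 11.8 CPM in CEA (log2 fold change -1.64, SE 0.26, edgeR adjusted p = 0.00499). Dlx2 was at 7.15, 6.04 and 8.27 CPM in PVN and 2.61, 3.11 and 1.31 CPM in CEA (log2 fold change -1.60, adjusted p = 0.0125), and without PVN NC replicate 3 its call was lost (adjusted p 0.0501) and that number was 1.

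The genes of striatal projection neurons gave the clearest group on the CEA side. All 20 of 20 tested were higher in CEA, with a median of 3.54 and the CEA libraries above the PVN libraries for each. Adora2a, the adenosine receptor of the neurons that project to the pallidum, was at 465, 254 and 362 CPM in CEA and 6.15, 5.72 and 5.20 CPM in PVN (log2 fold change 5.98, SE 0.26, edgeR adjusted p = 0.000110). Scn4b, a sodium channel subunit, was at 1235, 733 and 1009.8 CPM in CEA and 12.4, 19.5 and 16.0 CPM in PVN (log2 fold change 5.95, adjusted p = 0.000115). Gng7, the G protein subunit that couples their receptors to adenylyl cyclase, was at 1119, 883 and 840.2 CPM in CEA and 28.8, 32.4 and 33.9 CPM in PVN (log2 fold change 4.90, adjusted p = 4.0e-05).

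Markers of both classes of striatal neuron were higher in CEA. Drd1, the dopamine receptor of direct pathway neurons, was at 168, 72.7 and 109.7 CPM in CEA and 5.46, 5.83 and 4.16 CPM in PVN (log2 fold change 4.5, adjusted p = 0.000487). Drd2, of indirect pathway neurons, was at 204, 110.1 and 145 CPM in CEA and 11.2, 11.9 and 14.4 CPM in PVN (log2 fold change 3.61, adjusted p = 0.000381). Ppp1r1b, which encodes DARPP-32, the phosphatase inhibitor that relays dopamine signals, was at 2793, 1759 and 1996 CPM in CEA and 139.7, 104 and 105 CPM in PVN (log2 fold change 4.23, SE 0.23, edgeR adjusted p = 0.000164). Per length it stood at 2192 ± 509 TPM in CEA and 130.2 ± 20.3 TPM in PVN (SD, n = 3). CEA NC replicate 1 was the highest CEA library for all 20 genes of the list, whose summed levels were 12871, 8114 and 9575 CPM. The list is one of striatal genes and not of genes particular to the CEA, and the part of adjoining striatum in their levels was not tested.

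Genes of the postsynaptic side of excitatory synapses followed. Of 24 tested, 22 were higher in CEA and 0 in PVN (median 2.03). Itpka, a kinase of inositol trisphosphate that bundles actin in spines, was at 97.4, 61.9 and 81.5 CPM in CEA and 4.89, 3.70 and 4.0 CPM in PVN (log2 fold change 4.26, SE 0.21, edgeR adjusted p = 0.000149). Nrgn, which buffers calmodulin, was at 1885, 1177 and 1264 CPM in CEA and 189.9, 121 and 165 CPM in PVN (log2 fold change 3.18, adjusted p = 0.000528). Arc, an activity-regulated protein of synapses, was at 65.8, 108 and 96.2 CPM in CEA and 9.79, 10.8 and 12.9 CPM in PVN (log2 fold change 3.01, adjusted p = 0.000389). Camk2a, a kinase of synaptic plasticity, was at 409.6, 412 and 509 CPM in CEA and 66.9, 138 and 72.5 CPM in PVN, with PVN NC replicate 2 above the other PVN libraries (log2 fold change 2.26, adjusted p = 0.00221), whereas its partner subunit Camk2b differed less (0.75, adjusted p = 0.00240).

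Ion channel genes leaned the same way. Of 56 tested, 29 were higher in CEA and 3 in PVN (median 0.85); the number in CEA was 18 without CEA NC replicate 2 or PVN NC replicate 3, 16 with CEA NC replicate 3 removed and 19 with PVN NC replicate 1 removed. In the operated libraries 28 were higher in CEA and 12 in PVN. Kcnh3, a potassium channel of the forebrain, was at 63.8, 46.1 and 58.3 CPM in CEA and 3.45, 2.61 and 2.25 CPM in PVN (log2 fold change 4.34, SE 0.21, edgeR adjusted p = 0.000141). Kcnj4, an inward rectifier, was at 113, 81.3 and 97.5 CPM in CEA and 6.71, 5.28 and 4.93 CPM in PVN (log2 fold change 4.11, adjusted p = 0.000112). Kcnab1, a potassium channel beta subunit, was at 389, 231 and 333 CPM in CEA and 29.4, 40.2 and 39.9 CPM in PVN (log2 fold change 3.12, adjusted p = 0.000424). In the other direction, Scn9a, a sodium channel known from sensory and neuroendocrine neurons, was at 63.7, 57.2 and 44.0 CPM in PVN and 13.5, 7.38 and 7.55 CPM in CEA (log2 fold change -2.53, adjusted p = 0.00130).

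Receptors for amines and acetylcholine were higher in CEA for 13 and in PVN for 5 of 31 genes tested (median 1.01). Beside the dopamine receptors, Chrm1 was at 47.5, 27.6 and 40.1 CPM in CEA and 3.39, 3.05 and 3.23 CPM in PVN (log2 fold change 3.57, SE 0.23, edgeR adjusted p = 0.000296) and Chrm4 was at 65.3, 46.6 and 46.8 CPM in CEA and 5.08, 4.36 and 5.64 CPM in PVN (log2 fold change 3.39, adjusted p = 0.000187), both muscarinic. Htr6, a serotonin receptor of striatal neurons, was at 14.5, 10.2 and 11.8 CPM in CEA and 1.51, 1.36 and 1.48 CPM in PVN (log2 fold change 3.06, adjusted p = 0.000389). Cnr1, the cannabinoid receptor, was at 454, 193 and 324 CPM in CEA and 98.6, 106 and 108 CPM in PVN (log2 fold change 1.64, adjusted p = 0.00647). Of the genes higher in PVN, Adra2a, an adrenergic autoreceptor, was at 36.1, 26.4 and 32.7 CPM in PVN and 13.4, 7.38 and 9.98 CPM in CEA (log2 fold change -1.63, adjusted p = 0.00346) and Htr1a was at 5.33, 6.26 and 4.11 CPM in PVN and 2.14, 1.52 and 1.12 CPM in CEA (log2 fold change -1.71, adjusted p = 0.00793). The number higher in PVN was 2 with CEA NC replicate 2 removed and 3 with replicate 3 removed.

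Of 17 genes that make and carry transmitters, 5 were higher in PVN and 6 in CEA (median 0.03). Th, the enzyme that starts dopamine synthesis, was at 20.9, 26.9 and 25.9 CPM in PVN and 0.890, 0.820 and 0.722 CPM in CEA (log2 fold change -4.91, SE 0.20, edgeR adjusted p = 8.96e-05), and Slc18a2, which loads dopamine and the other monoamines into vesicles, was at 38.7, 29.8 and 28.0 CPM in PVN and 8.31, 7.62 and 8.54 CPM in CEA (log2 fold change -1.98, adjusted p = 0.000570). Chat, which makes acetylcholine, was at 26.1, 19.7 and 15.8 CPM in CEA and 0.376, 1.96 and 3.45 CPM in PVN (log2 fold change 3.39, adjusted p = 0.00657), and Slc18a3, the vesicle transporter of acetylcholine, was at 30.5, 18.8 and 17.4 CPM in CEA and 1.82, 2.94 and 4.27 CPM in PVN (log2 fold change 2.88, adjusted p = 0.00206). The value for Chat was 4.11 when PVN NC replicate 3 was left out.

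The core genes of GABA neurons were not called in the controls. Gad1, which makes GABA, was at 519, 389 and 368 CPM in CEA and 328, 279 and 364 CPM in PVN (log2 fold change 0.39, SE 0.16, edgeR adjusted p = 0.118), and its vesicle transporter Slc32a1 was at 411, 268 and 244 CPM in CEA and 268, 208 and 295 CPM in PVN (log2 fold change 0.26, adjusted p = 0.423). In the operated libraries both were called higher in CEA, at a log2 fold change of 0.71 for Gad1 (adjusted p 5.79e-07) and 0.50 for Slc32a1 (adjusted p 0.00144). Of 12 genes on the GABA neuron list, 4 were higher in CEA and 0 in PVN (median 0.32), and 1 was higher in PVN with the block. In the operated libraries 7 were higher in CEA and 3 in PVN. Pvalb, which marks fast-spiking interneurons, was at 75.1, 142 and 95.9 CPM in CEA and 29.9, 18.6 and 32.5 CPM in PVN (log2 fold change 1.95, adjusted p = 0.00383).

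The vesicular glutamate transporters varied with the library. Slc17a7, used by cortical, hippocampal and basolateral amygdala neurons, was at 25.8, 175 and 299 CPM in CEA and 1.07, 11.2 and 8.6 CPM in PVN (log2 fold change 4.57, SE 1.03, edgeR adjusted p = 0.0171). CEA NC replicate 1 was the lowest CEA library and PVN NC replicate 1 the lowest PVN library, and without PVN NC replicate 3 the gene was not called (adjusted p 0.0624). Its log2 fold change was 3.84 when CEA NC replicate 3 was left out (adjusted p 0.0496). Slc17a6, used by thalamic and hypothalamic neurons, was at 255, 330.4 and 314 CPM in PVN and 49.9, 172 and 222 CPM in CEA and was not called (log2 fold change -1.02, adjusted p = 0.145). It was called higher in PVN without CEA NC replicate 1 (log2 fold change -0.60, adjusted p 0.0473) and in the operated libraries (-1.56, adjusted p 0.00696). Of 19 genes of cortical, hippocampal and basolateral excitatory neurons, 6 were higher in CEA and 2 in PVN (median 0.60), and the latter was 1 without CEA NC replicate 1 or any single PVN library.

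Among ionotropic and metabotropic glutamate receptors, 6 of 24 were higher in CEA and 3 in PVN (median 0.20), and 3 were higher in CEA without CEA NC replicate 3 or PVN NC replicate 3. Gria3, an AMPA receptor subunit, was at 194, 152 and 220.5 CPM in CEA and 63.6, 79.9 and 69.7 CPM in PVN (log2 fold change 1.41, adjusted p = 0.00168), while Grin2d, an NMDA receptor subunit of early and diencephalic neurons, was at 52.5, 63.0 and 66.5 CPM in PVN and 29.3, 21.1 and 20.4 CPM in CEA (log2 fold change -1.36, adjusted p = 0.00222). For receptors of GABA and glycine the counts were 2 in CEA and 6 in PVN of 20 (median -0.16), and 5 in CEA without PVN NC replicate 2. Gabra4 and Gabrd, which form receptors outside the synapse, were higher in CEA, with Gabra4 at 218, 294 and 384 CPM in CEA and 40.2, 70.4 and 62.4 CPM in PVN (log2 fold change 2.37, adjusted p = 0.00166) and Gabrd at 61.7, 122 and 131 CPM in CEA and 3.20, 16.0 and 13.6 CPM in PVN (log2 fold change 3.25, adjusted p = 0.00647). Gabre and Gabrq, rare subunits known from the hypothalamus and brainstem, were higher in PVN, with Gabre at 38.2, 25 and 34.2 CPM in PVN and 6.29, 1.58 and 1.58 CPM in CEA (log2 fold change -3.36, adjusted p = 0.00473) and Gabrq at 10.7, 22.0 and 9.64 CPM in PVN and 2.43, 0.703 and 0.460 CPM in CEA (log2 fold change -3.54, adjusted p = 0.00674). These were -4.35 and -4.57 when CEA NC replicate 1 was left out.

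**Figure D4:**
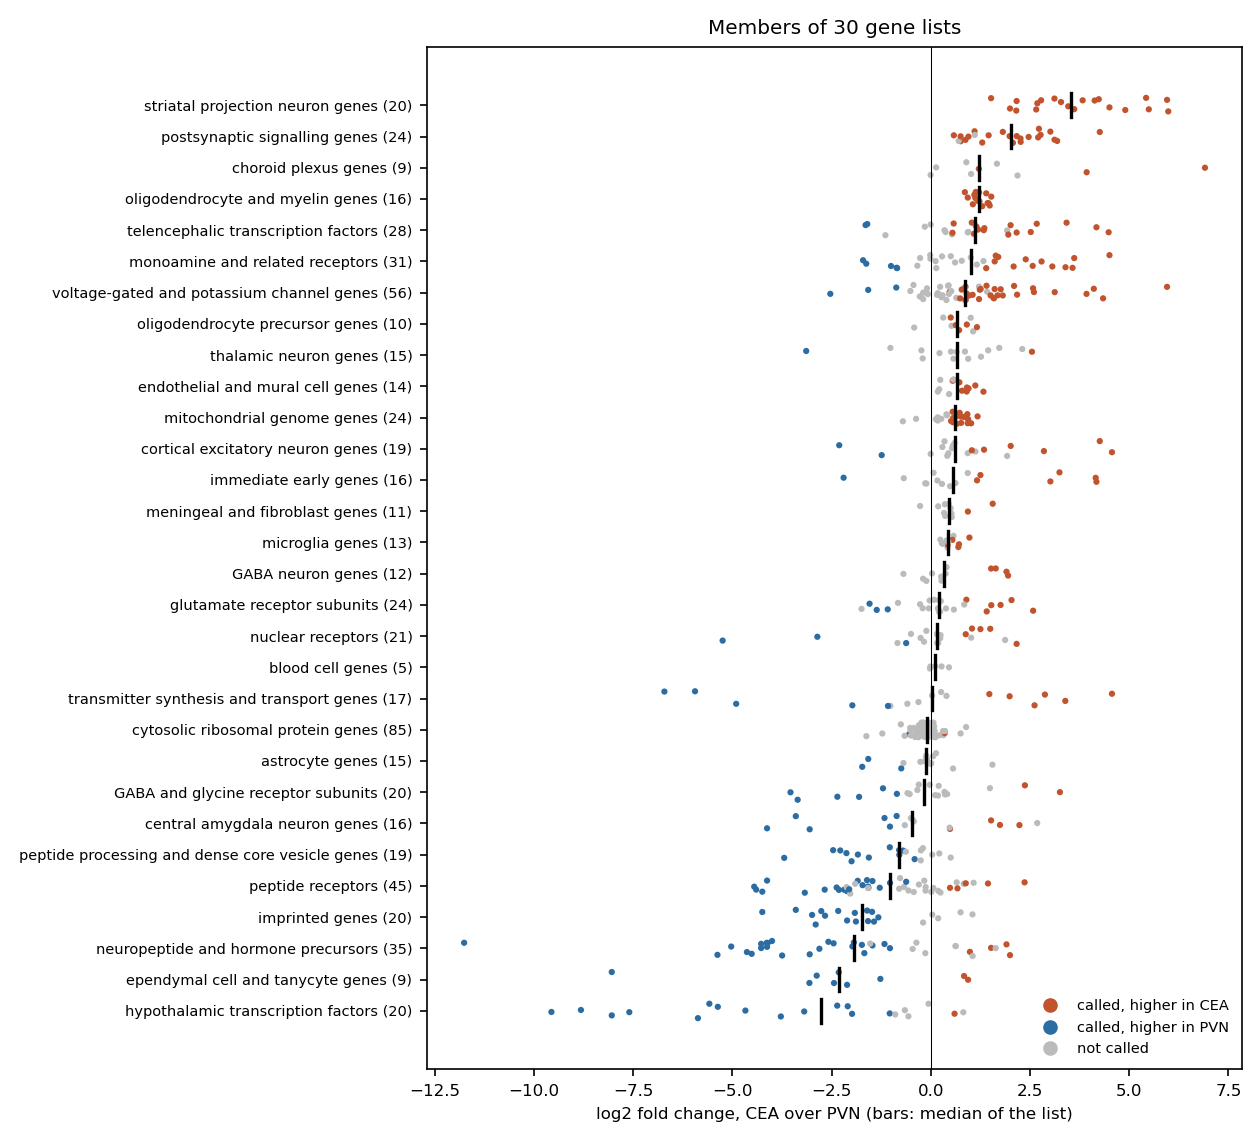
Log2 fold changes of CEA over PVN for the tested members of 30 gene lists, each point a gene and each black bar the median of its list, with called genes in orange (higher in CEA) or blue (higher in PVN) and the number tested after the name. The lists are sorted by median, from striatal projection neuron genes at 3.54 to hypothalamic transcription factors at -2.78.

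Imprinted genes, which are expressed from a single parental copy, were mostly higher in PVN. Of 20 tested, 15 were higher in PVN and 0 in CEA (median -1.75). Nnat, which encodes neuronatin, was at 1825, 1168 and 1502 CPM in PVN and 541, 293 and 206 CPM in CEA (log2 fold change -2.11, SE 0.36, edgeR adjusted p = 0.00613). Per length it stood at 2308 ± 421 TPM against 479 ± 232 TPM in CEA (SD, n = 3). Peg3, a zinc finger protein of maternal behaviour and growth, was at 1906, 2214 and 1821 CPM in PVN and 884, 605 and 639 CPM in CEA (log2 fold change -1.48, adjusted p = 0.00163). Ndn and Magel2, neighbours in the Prader-Willi region, were both higher in PVN, with Ndn at 777, 500.1 and 676 CPM in PVN and 235, 148 and 144 CPM in CEA (log2 fold change -1.89, adjusted p = 0.00235) and Magel2 at 72.8, 49.8 and 57.3 CPM in PVN and 13.8, 3.57 and 5.19 CPM in CEA (log2 fold change -2.99, adjusted p = 0.00461). Dlk1, a Notch family ligand, was at 95.4, 110.0 and 95.2 CPM in PVN and 18.2, 5.74 and 4.40 CPM in CEA (log2 fold change -3.40, adjusted p = 0.00359). The regions did not overlap for any of these. When CEA NC replicate 1 was left out the value was -3.77 for Magel2 and -4.29 for Dlk1.

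Of 16 immediate early genes tested, 6 were higher in CEA and 1 in PVN (median 0.55), with 2 in PVN under the block. The 4 Egr genes were all higher in CEA, with Egr3 at 64.7, 45.5 and 57.5 CPM in CEA and 2.07, 3.81 and 3.34 CPM in PVN (log2 fold change 4.17, SE 0.25, edgeR adjusted p = 0.000215) and Egr1 at 139, 129.5 and 128 CPM in CEA and 47.9, 61.6 and 67.3 CPM in PVN (log2 fold change 1.16, adjusted p = 0.00191). Fos was at 10.8, 22.6 and 18.7 CPM in CEA and 23.4, 29.5 and 30.5 CPM in PVN and was not called (log2 fold change -0.68, adjusted p = 0.0953), though with the block it was higher in PVN (adjusted p 0.0314), as in the operated libraries (-1.13, adjusted p 4.17e-05). Bdnf, the neurotrophin, was at 31.1, 22.5 and 26.4 CPM in PVN and 2.31, 5.51 and 9.65 CPM in CEA (log2 fold change -2.20, adjusted p = 0.0114).

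Steroid and other nuclear receptors did not move as a group, with 5 of 21 tested higher in CEA and 3 in PVN (median 0.17). Nr3c1, the glucocorticoid receptor, had no match among the deposited gene names and is not among the 21. Esr1, the estrogen receptor alpha, was at 10.5, 10.4 and 9.80 CPM in PVN and 1.96, 0.996 and 1.25 CPM in CEA (log2 fold change -2.86, SE 0.27, edgeR adjusted p = 0.000945). Rarb, a retinoic acid receptor of striatal neurons, was at 49.4, 31.8 and 34.0 CPM in CEA and 8.97, 9.04 and 7.72 CPM in PVN (log2 fold change 2.16, adjusted p = 0.000837). Nr3c2, the mineralocorticoid receptor that binds corticosterone at low levels, was at 16.0, 14.7 and 16.6 CPM in CEA and 3.26, 8.6 and 4.82 CPM in PVN (log2 fold change 1.5, adjusted p = 0.0156), and its call was lost when the test left out CEA NC replicate 3 or PVN NC replicate 3 (adjusted p 0.0517 to 0.0592). Without PVN NC replicate 3, 3 were higher in CEA.

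Some glial and vascular genes differed as well. All 16 of 16 myelin genes tested were higher in CEA (median 1.20). Mbp, the myelin basic protein, was at 14434, 23536 and 15943 CPM in CEA and 5028, 6322 and 8650.3 CPM in PVN (log2 fold change 1.43, SE 0.25, edgeR adjusted p = 0.00728). No PVN library reached any CEA library. Per length Mbp stood at 9338 ± 2574 TPM against 3854 ± 999.7 TPM in PVN (SD, n = 3). Of 10 genes of oligodendrocyte precursors, 5 were higher in CEA and 0 in PVN (median 0.67), and the number in CEA was 2 when CEA NC replicate 2 or PVN NC replicate 1 was removed and 3 when CEA NC replicate 3 was.

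Microglia genes were higher in CEA for 5 of 13 (median 0.42), or 3 without CEA NC replicate 1 or 2 or PVN NC replicate 1 or 3, and endothelial and mural cell genes for 9 of 14 (median 0.65). Cx3cr1, the fractalkine receptor of microglia, was at 43.3, 35.4 and 36.3 CPM in CEA and 18.1, 22.3 and 18.2 CPM in PVN (log2 fold change 0.97, adjusted p = 0.00346). Flt1, a VEGF receptor of endothelium, was at 123, 115 and 121 CPM in CEA and 53.8, 72.5 and 64.3 CPM in PVN (log2 fold change 0.91, adjusted p = 0.00310). Blood cell genes gave 0 calls of 5 (median 0.11).

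Astrocyte genes were close to level, with 3 of 15 higher in PVN and 0 in CEA (median -0.11), 2 in CEA with the block and 1 without PVN NC replicate 2. Those 3 were Agt, given above, Itih3 at 1255, 903 and 1048 CPM in PVN and 411, 317 and 239 CPM in CEA (log2 fold change -1.73, adjusted p = 0.00216) and Slc7a10, a transporter of small neutral amino acids, at 97.8, 86.9 and 87.9 CPM in PVN and 54.1, 62.6 and 45.8 CPM in CEA (log2 fold change -0.75, adjusted p = 0.00770). Aldh1l1, a general marker of astrocytes, was at 29.4, 30.5 and 24.1 CPM in CEA and 24.3, 26.9 and 25.5 CPM in PVN and was not called (log2 fold change 0.13, adjusted p = 0.488).

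Most tested genes of the cells that line the ventricles were higher in PVN. The PVN borders the third ventricle, and the part of ventricular lining in the dissected tissue was not tested. Of 9 ependymal and tanycyte genes tested, 7 were higher in PVN and 2 in CEA (median -2.32). Ccdc153, a protein of motile cilia, was at 31.0, 14.7 and 17.7 CPM in PVN and 2.26, 4.22 and 2.10 CPM in CEA (log2 fold change -2.88, SE 0.39, edgeR adjusted p = 0.00272). Tmem212 was at 15.7, 7.46 and 7.83 CPM in PVN and 1.13, 1.82 and 0.722 CPM in CEA (log2 fold change -3.06, adjusted p = 0.00335). Rarres2, one of the 2 in CEA, encodes chemerin and was at 11.7, 14.5 and 11.8 CPM in CEA and 7.59, 6.70 and 5.53 CPM in PVN (log2 fold change 0.94, adjusted p = 0.0107). Crym, the other, was lost when the test left out CEA NC replicate 1 or 2 or PVN NC replicate 2 or 3 (adjusted p 0.0635 to 0.109) and when all 24 libraries were fitted together (0.0711). In those 4 fits on fewer libraries 1 gene of the list was higher in CEA.

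Choroid plexus genes were high in a single CEA library. Ttr, the transthyretin that choroid plexus secretes, was at 12, 985 and 9.46 CPM in CEA and 0.753, 3.10 and 4.38 CPM in PVN, so that CEA NC replicate 2 carried nearly all of it (log2 fold change 6.91, SE 2.02, edgeR adjusted p = 0.0422). When that library was removed the log2 fold change was 1.96 with an adjusted p of 0.0724, without a PVN library the adjusted p was 0.0895 to 0.123, and with the block it was 0.0932. Summed over 12 choroid plexus genes, CEA held 185, 1486 and 203 CPM and PVN held 108, 139 and 135 CPM. Of 9 tested, 3 were higher in CEA and 0 in PVN (median 1.21). Without CEA NC replicate 2, 3 were higher in PVN. The number in CEA was 1 with PVN NC replicate 2 removed and 0 with replicate 1 or 3 removed. Of 11 meningeal and fibroblast genes, 2 were higher in CEA and 0 in PVN (median 0.45), with 1 in CEA when CEA NC replicate 2 or 3 or PVN NC replicate 3 was removed and 0 when PVN NC replicate 1 was.

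Transcripts of the mitochondrial genome were higher in CEA for 16 of 24 tested (median 0.60), and 0 were higher in PVN. They took 11.5% to 12.8% of counts in CEA and 7.58% to 8.77% in PVN. Mt-nd4, a subunit of complex I, was at 1157, 1206 and 1393 CPM in CEA and 459, 590.3 and 611 CPM in PVN (log2 fold change 1.18, adjusted p = 0.00194). When all 24 libraries were fitted together its adjusted p was 0.0565 and the list gave 9 calls. An operated CEA library, HT+EA replicate 2 (hepatectomy with electroacupuncture), stood apart with 3.80% of its counts on these transcripts, against 10.1% to 14.4% in the other CEA libraries. Without it, an alternative chosen after seeing the data, the fit of all remaining libraries gave Mt-nd4 an adjusted p of 0.000267 and the list 16 calls. Of 85 cytosolic ribosomal protein genes tested, 1 was higher in CEA and 1 in PVN (median -0.09), whereas in the operated libraries 30 were higher in CEA and 0 in PVN (42 and 0 without CEA HT+EA replicate 2), and 28 had the same sign in both sets. Without PVN NC replicate 2, 18 were higher in PVN, with any other library left out 0 were higher in CEA, and with the block 0 were higher in CEA and 2 in PVN.

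The 18 operated libraries share no library with the controls and gave the region difference a second time, under other conditions. Of the 2120 genes higher in CEA in controls, 1940 were also called higher in CEA in operated rats, which is 91.5% of the former and 42.1% of the 4608 called there. Of the 2294 higher in PVN, 1984 were called again, which is 86.5% of them and 45.9% of the 4322 called there. With 9 libraries a region, 28.0% of the 16431 genes tested were higher in CEA and 26.3% were higher in PVN. Without CEA HT+EA replicate 2, the library low in mitochondrial transcripts, 4716 genes were higher in CEA and 4462 in PVN, and 1923 and 1977 were called in both sets. With all 18, called in the opposite direction were 0 of the genes higher in CEA and 1 of those higher in PVN, Zfp653, a zinc finger protein named after its values were seen, at 16.7, 16.9 and 17.5 CPM in PVN and 12.6, 13.5 and 12.6 CPM in CEA in the controls (log2 fold change -0.40, adjusted p = 0.0487) and a log2 fold change of 0.21 in operated rats (adjusted p 0.0207). Without CEA HT+EA replicate 2 the genes called in the opposite direction were 0 of those higher in CEA and 2 of those higher in PVN, Zfp653 among them at a log2 fold change of 0.20 (adjusted p 0.0298). Its call in the controls was lost with the block (adjusted p 0.0723), with median-of-ratios factors (0.0546), with no filter (0.107), by DESeq2 (0.0858), without mitochondrial genes (0.0670) and when the test left out CEA NC replicate 1, 2 or 3 or PVN NC replicate 1 or 3 (adjusted p 0.101 to 0.163).

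For the gene lists, 21 of 60 counts (30 lists in 2 directions) differed by more than 1.5 times between the controls and the operated libraries, and 22 did without CEA HT+EA replicate 2. The number higher in PVN went from 20 to 32 for peptide receptors, from 6 to 12 for GABA and glycine receptors, from 5 to 11 for receptors of monoamines, acetylcholine, histamine and cannabinoids, and from 3 to 12 for ion channels. It went from 3 to 8 for glutamate receptors, from 3 to 8 for astrocyte genes (6 without that library), from 3 to 7 for nuclear receptors and from 1 to 4 for thalamic genes. The number higher in CEA went from 5 to 13 for microglia genes, from 4 to 8 for peptide precursors, from 6 to 10 for immediate early genes (8 without that library), from 5 to 8 for oligodendrocyte precursor genes and from 2 to 5 for meningeal genes. More libraries entered the operated fit, and its share of all genes called was larger, as given above.

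Oxt had a median of 547 CPM in operated PVN (lowest 148, highest 653) and 69.8 CPM in operated CEA (10.5 to 78.1), with a log2 fold change of -3.32 and an edgeR adjusted p of 3.42e-07. Adora2a had a median of 306 CPM in operated CEA (lowest 145, highest 536) and 6.37 CPM in operated PVN (5.56 to 7.54), with a log2 fold change of 5.56 and an adjusted p of 1.80e-12.

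Prkcd, which the controls left uncalled, was at a median of 176 CPM in operated CEA (lowest 20.6, highest 559.7) and 98.9 CPM in operated PVN (55.3 to 157), with a log2 fold change of 1.32 and an edgeR adjusted p of 0.0272. Without CEA HT+EA replicate 2 these were 1.06 and 0.0729, and the call ended. Crh was at a median of 8.18 CPM in operated PVN (lowest 4.24, highest 10.1) and 1.81 CPM in operated CEA (0.603 to 3.16), with a log2 fold change of -2.20 and an adjusted p of 1.32e-07.

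**Figure D5:**
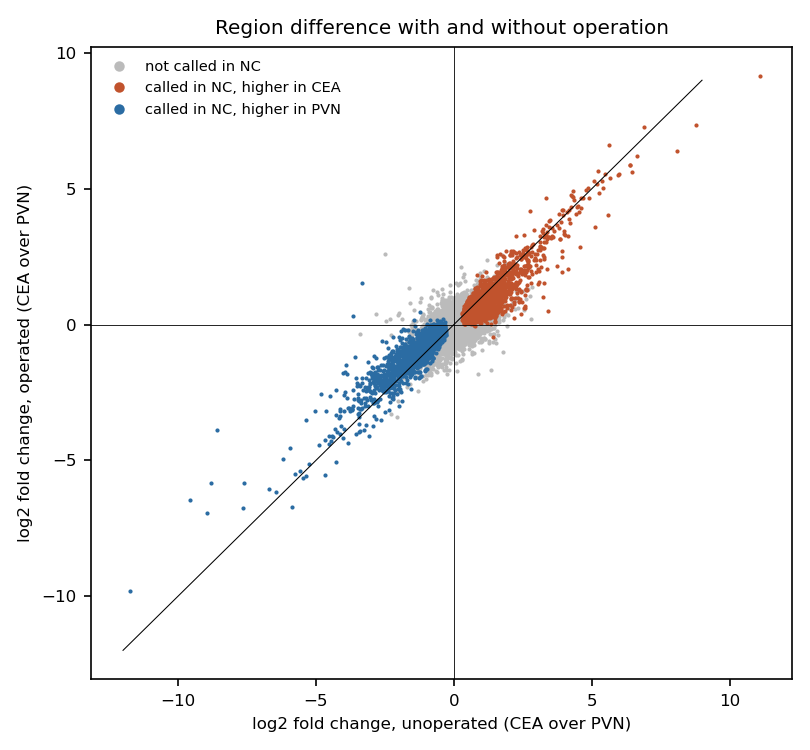
Log2 fold change of CEA over PVN in unoperated libraries on the horizontal axis and in the operated libraries on the vertical axis, each point a gene tested in both, coloured by its call in the unoperated libraries, with the line of equality. The 1940 genes called higher in CEA in both sets lie in the upper right and the 1984 called higher in PVN in both lie in the lower left.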

How the data were processed

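mRNA was measured by strand-specific RNA-seq of dissected rat CEA and PVN, and the titles gave each library its group and number. The deposited file holds unnormalized whole-number counts of reads for each gene, made by the authors with HISAT2 and featureCounts per the labels and the study's methods. Versions, strand setting and the treatment of reads that map to several places are not given in the sources used here, so near-identical copies and overlapping or antisense genes are uncertain. A stray second header row was dropped, and 2149 of 35032 rows carried no Ensembl identifier. The methods name a rat genome and the processing notes name GRCh38; the table names no build, and its coordinates are not printed.

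Counts of the 6 NC libraries were tested in R 4.3.3 by edgeR 4.0.16, using its two-sided quasi-likelihood F-test on genes kept by filterByExpr, with TMM factors and Benjamini-Hochberg adjustment over 16748 genes and a threshold of 0.05. CPM were scaled by TMM factors, and TPM were computed from the counts and the deposited gene lengths. Total counts of 14932702 to 18145421 set the precision. The members and the 30 gene lists were chosen with earlier results of these data known. Named genes were, in each direction, the 12 with the largest fold change (mean of at least 5 CPM in the higher region, no overlap), the 8 with the highest TPM at a log2 fold change of at least 1, and of each list the first 3 and up to 6 called members with the largest change. Some genes that the rule names are not reported here. Of the listed symbols, 21 were not matched in the table and were not analysed here. On simulated counts of this comparison, 64.5% of 200 genes changed 2-fold and 99.0% of 200 changed 4-fold were called, with 3 and 12 false calls among 16546 and 16513 genes. The changed genes were above 1 CPM, and counts were drawn independently at the spread fitted to the mean level. They held no spread particular to a gene and no deviation shared between libraries, so these rates need not hold for the real libraries. Same-numbered CEA and PVN libraries deviated together from their region means (correlations across genes of 0.306, 0.118 and 0.200), so a fit with the replicate number as a block was computed; the pairing comes from the data, since the labels give only a number and by the methods the samples were not from a single animal. The alternatives tried were median-of-ratios size factors, no filter, a filter at 1 CPM in 3 libraries, DESeq2 1.42.0, all 24 libraries in a single fit, removal of mitochondrial genes, the block, the operated libraries and each NC library left out. After the data were seen, the fits of all libraries and of the operated libraries were repeated without CEA HT+EA replicate 2. Promoter letters are from RefSeq on GRCr8.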

Additional observations from a re-analysis of the deposited data

How the results depend on the processing

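With 3 libraries a region, the number of genes called moved with single libraries. It was 4312 to 4859 with other size factors, filters, DESeq2 or removal of mitochondrial genes, 6052 with all 24 libraries in a single fit and 8930 in the operated libraries (4608 higher in CEA and 4322 higher in PVN). Without CEA HT+EA replicate 2, left out after seeing the data, these became 6319 with all remaining libraries and 9178 in the operated libraries (4716 higher in CEA and 4462 in PVN). With each library left out in turn it was 2450 to 6152, with 1190 to 3136 higher in CEA and 1223 to 3016 higher in PVN. The lowest total was without CEA NC replicate 3 and the highest was without PVN NC replicate 2. The cause was not tested. With the replicate block, for the pairing described above, 4613 genes were called (2331 higher in CEA and 2282 in PVN). Among the named genes the block ended the calls of Adm, Ttr and Zfp653, called Prkcd and Fos, and changed no other call. Of 108 called genes named here, 95 kept their call under each alternative other than the operated libraries, where 0 changed sign. In the operated libraries Zfp653 did, at 0.21, or 0.20 without CEA HT+EA replicate 2. Of 60 list counts, 21 moved by more than 1.5 times in the operated libraries and 10 with all 24. With each control library left out in turn, 7 to 14 moved, the most without CEA NC replicate 2 or PVN NC replicate 3. Genes that were not called changed sign in a few settings. In the operated libraries the log2 fold change was -0.00665 for Aldh1l1 and -0.0206 for Pcsk2, or -0.0452 and -0.110 without CEA HT+EA replicate 2. With single libraries left out it ran from -0.00287 to 0.41 for Slc32a1 and from -0.34 to 0.0295 for Crhr1. Other scalings moved the median of all genes by at most 0.03 on the log2 scale in the control libraries, and the share of calls that were higher in CEA was 48.0% to 51.8%. Depth limits what can be said of genes at or below 0.197 CPM.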

Other observations

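By the transcription factor families annotated in the deposited table, 75 homeobox genes were tested, of which 24 were higher in PVN and 14 in CEA. The 8 T-box genes gave 4 in PVN and 0 in CEA (median -0.46). The 26 MYB genes gave 5 and 0, but their median of -0.04 was near the -0.01 of all genes tested. In the other direction, 8 of 18 ETS genes were higher in CEA and 0 in PVN, as were 14 of 65 bHLH genes against 6. Over all genes 12.7% were higher in CEA and 13.7% in PVN. The 418 C2H2 zinc finger genes were close to that, with 40 in CEA and 44 in PVN. The 46 HMG genes gave 5 in each direction. The ARID, CSD and THR-like genes gave 4 of 10, 3 of 8 and 3 of 16 in CEA and 0 in PVN. The families named were not chosen beforehand.

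Several genes with the largest differences or highest levels belong to no list. Lrrc10b was at 259.6, 190.3 and 212 CPM in CEA and 5.33, 6.32 and 4.38 CPM in PVN (log2 fold change 5.37, SE 0.20, edgeR adjusted p = 6.40e-05), and Dmkn, known from skin, was at 28.2, 14.9 and 12 CPM in CEA and 0.627, 0.327 and 0.548 CPM in PVN (log2 fold change 5.19, adjusted p = 0.000644). Pcp4, a calmodulin regulator, was at 1013, 1377 and 1413 CPM in CEA and 296, 358 and 325 CPM in PVN (log2 fold change 1.96, adjusted p = 0.000553). In PVN, Bsx, a homeobox factor of feeding neurons, had 1 count over the CEA libraries and 7.53, 5.23 and 3.94 CPM in PVN, a ratio of 269 (95% counting interval 47.9 to 10671). That count was in CEA NC replicate 1, and the fitted log2 fold change, which at such counts depends on the prior count, was -7.65 with that library and -9.56 without it. Ces1d, a carboxylesterase, was at 15.5, 9.20 and 9.04 CPM in PVN and 0.119, 0.0586 and 0.197 CPM in CEA (log2 fold change -6.44, adjusted p = 0.000368). Nap1l5 was at 1590.3, 1212 and 1571 CPM in PVN and 446, 289 and 287 CPM in CEA (log2 fold change -2.10, adjusted p = 0.00109) and Bex2 at 631, 407 and 525 CPM in PVN and 263, 177 and 200.5 CPM in CEA (log2 fold change -1.29, adjusted p = 0.00494).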
